A study of Mus musculus with 6 samples.

Results

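Messenger RNA levels were measured for 33 genes of glucose use and of the response to low oxygen in splenic γδ T cells, a T cell class named for the γ and δ chains of its receptor. The genes were chosen by function and matched by gene symbol: all 33 had a row among the 19390 genes of the deposited count table. They encode glucose and lactate transporters, the enzymes of glycolysis, 3 regulators of its flux, and the hypoxia-inducible factor (HIF) with its controllers and targets. Mice were 6 weeks old, and the cells were purified from spleen by cell sorting before bulk RNA sequencing. The 3 WT-labelled libraries were taken to come from USF3-f/f mice, whose Usf3 alleles are floxed, and the 3 KO-labelled libraries from USF3-f/f; CD2-cre mice. Both groups thus carried the floxed alleles, while CD2-cre was present in the KO-labelled mice alone. CD2-cre is a transgene that drives Cre recombinase in lymphoid cells and so is not limited to γδ T cells. Sex, strain, culture after the sort and whether a library came from 1 mouse or a pool are not stated in the labels. P-values therefore measure the spread between these libraries, which may be technical. The study asked, by its title, what Usf3 does in γδ T cells, and the design holds 1 comparison, KO-labelled against WT-labelled.

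Glycolysis breaks glucose down to pyruvate in the cytosol, and activated lymphocytes raise it to fuel growth and effector function, exporting much of the carbon as lactate. HIF is a transcription factor whose α subunit is hydroxylated by oxygen-dependent prolyl hydroxylases and then destroyed through the von Hippel-Lindau ubiquitin ligase. When oxygen is short, and in T cells also after antigen receptor and cytokine signals, HIF accumulates. It raises glucose transporters, glycolytic enzymes, the kinase that switches off pyruvate dehydrogenase, and its own prolyl hydroxylases. USF1 and USF2, the transcription factors whose family name Usf3 shares, bind the E-box CACGTG, as do MYC and related factors. The core of the HIF site is ACGTG or GCGTG, of which ACGTG lies within that E-box and GCGTG does not.

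Libraries were alike in depth, with 34644862 to 35806402 deposited counts each. Usf3 itself had 2499, 2527 and 2593 counts in WT-labelled replicates 1, 2 and 3 and 2532, 2360 and 2348 in KO-labelled replicates 1, 2 and 3. Its log2 fold change was -0.076 ± 0.043 (SE), which did not pass the test (adjusted p = 0.261). The labels do not say which exons are floxed, so this count over the whole gene cannot check them. The T cell receptor complex genes Cd3d, Cd3e and Cd3g were lower in KO-labelled libraries, 3 of the 7 tested genes of the γδ T cell list. The other 4 did not pass. Cd247, also of the receptor complex, had a log2 fold change of 0.034 (adjusted p = 0.593) and Cd27 of 0.095 (adjusted p = 0.133). Il2rb was at -0.033 (adjusted p = 0.222) and Sox13 at -0.43 (adjusted p = 0.102). Cd3g changed by -11.1% (adjusted p = 5.91e-05), Cd3d by -7.87% (adjusted p = 0.00287) and Cd3e by -5.12% (adjusted p = 0.0364). Cd3e stood at 349, 347 and 341 CPM (the count relative to the library's scaled total) in WT-labelled and 332, 323 and 329 in KO-labelled libraries, and its call was lost without any 1 library other than KO-labelled replicate 3 (adjusted p 0.0635 to 0.149). These changes are of the size of many of those described next, and their part in those was not tested. The receptor constant genes Trdc, Trgc1, Trgc2 and Trgc4, which would mark γδ T cells directly, were not analysed here.

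Promoter windows show which members carry these motifs. RefSeq windows on GRCm38.p6, from 250 bases before to 50 after an annotated start, matched 31 of the 33 members, all but Slc2a3 and Bnip3l, with 44 windows in all. The windows of the matched members among the 4 largest changes are printed 5′ to 3′ along the gene, with every ACGTG or GCGTG, on either strand, in capitals. They are shown because Ddit4, Hk2 and Aldoc fell most among the matched members.
Ddit4, chr10:59951721-59952020 (minus strand): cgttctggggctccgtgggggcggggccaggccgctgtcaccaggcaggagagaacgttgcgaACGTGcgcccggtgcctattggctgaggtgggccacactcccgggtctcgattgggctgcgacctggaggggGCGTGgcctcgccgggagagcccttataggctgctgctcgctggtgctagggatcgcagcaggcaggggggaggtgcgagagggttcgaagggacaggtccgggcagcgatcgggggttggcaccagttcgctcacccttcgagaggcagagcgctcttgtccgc
Hk2, chr6:82774405-82774704 (minus strand): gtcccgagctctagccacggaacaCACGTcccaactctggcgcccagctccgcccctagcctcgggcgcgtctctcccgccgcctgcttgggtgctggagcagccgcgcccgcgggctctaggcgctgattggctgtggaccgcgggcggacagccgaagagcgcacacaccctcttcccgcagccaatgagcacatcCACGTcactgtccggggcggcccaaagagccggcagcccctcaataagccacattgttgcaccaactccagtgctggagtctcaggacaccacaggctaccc
Aldoc, chr11:78322823-78323122 (plus strand): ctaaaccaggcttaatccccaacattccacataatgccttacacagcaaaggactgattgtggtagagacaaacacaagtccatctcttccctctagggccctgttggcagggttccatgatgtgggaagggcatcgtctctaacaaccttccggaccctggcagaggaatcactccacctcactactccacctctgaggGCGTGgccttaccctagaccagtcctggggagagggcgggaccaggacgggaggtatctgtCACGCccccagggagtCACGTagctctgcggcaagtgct
Aldoc, second start, chr11:78323948-78324247 (plus strand): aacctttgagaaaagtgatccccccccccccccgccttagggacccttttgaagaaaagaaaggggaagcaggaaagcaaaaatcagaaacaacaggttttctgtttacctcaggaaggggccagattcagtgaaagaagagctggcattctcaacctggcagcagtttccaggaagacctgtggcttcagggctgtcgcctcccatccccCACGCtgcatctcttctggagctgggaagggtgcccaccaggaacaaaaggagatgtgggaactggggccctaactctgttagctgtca
Ddit4 held 2 such matches, Hk2 2, and the Aldoc windows 3 and 1. At least 1 ACGTG or GCGTG lay in 35 of the 44 member windows (79.5%), in 60.8% of the 12823 windows of tested genes and in 43.8% of all 32851 windows. Of the 21 windows of members lower in KO-labelled libraries 17 held one, a share near that of all member windows. Some members have several windows, and some of these overlap. Counted by member, 14 of the 16 lower members with a window and 27 of all 31 held one. ACGTG alone lay in 52.3% of member windows and 25.2% of those of tested genes. GCGTG lay in 56.8% and 49.3%. GGGCGG, the core of the Sp1 site, searched in the same way on both strands, lay in 61.4% of member windows and in 60% of those of tested genes. A match is a run of letters and was not measured as binding.

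The full E-box CACGTG, which reads the same on both strands and holds an ACGTG on each, lay in 6 of the 44 member windows (13.6%), in 9.6% of the windows of tested genes and in 7.15% of all windows. The 60 bases around each one are printed with the E-box in capitals, because USF1 and USF2 bind this motif. It is not theirs alone, since MYC and related factors bind it too. Binding of Usf3, of MYC or of any other factor was not measured.
Bnip3, chr7:138909582-138909641 (minus strand): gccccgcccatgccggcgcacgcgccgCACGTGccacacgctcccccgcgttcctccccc
Hif1a, chr12:73907705-73907764 (plus strand): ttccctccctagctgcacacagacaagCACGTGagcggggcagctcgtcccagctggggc
Ldha, distal, chr7:46845632-46845691 (plus strand): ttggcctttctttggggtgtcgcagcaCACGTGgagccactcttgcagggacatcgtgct
Ldha, proximal, chr7:46845729-46845788 (plus strand): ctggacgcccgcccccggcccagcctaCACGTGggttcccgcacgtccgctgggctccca
Pfkfb3, chr2:11502111-11502170 (minus strand): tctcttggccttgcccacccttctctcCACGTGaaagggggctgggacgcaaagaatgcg
Pfkm, chr15:98092426-98092485 (plus strand): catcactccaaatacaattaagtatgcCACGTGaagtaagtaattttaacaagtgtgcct
Slc16a1, chr3:104638437-104638496 (plus strand): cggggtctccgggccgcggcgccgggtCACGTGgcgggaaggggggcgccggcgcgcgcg
The E-box of Bnip3 begins 108 bases before the annotated start of its window, that of Hif1a 135 and those of Ldha 145 and 48. That of Pfkfb3 begins 53 bases before such a start, that of Pfkm 136 and that of Slc16a1 200. Pfkm had 4 windows and Ldha and Pfkfb3 had 2 each, and their other windows held no CACGTG. Which start these cells use was not measured. In the comparison of the groups, Bnip3 and Hif1a were lower in KO-labelled libraries, Pfkm was higher, and Ldha, Pfkfb3 and Slc16a1 did not pass the test. None of Ddit4, Hk2 and Aldoc held a CACGTG in its windows.

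Most of the glycolysis and hypoxia genes were lower in KO-labelled libraries, by small amounts. Of 32 tested members, 18 were lower and 1 was higher at an adjusted p under 0.05, the threshold used throughout (edgeR quasi-likelihood test, Benjamini-Hochberg adjustment over all 12810 tested genes), and 13 did not pass. Over all tested genes 10.1% were lower and 7.23% higher, 17.3% in all. The median log2 fold change was -0.099 over the members and 0.0014 over all tested genes. The members were chosen with earlier results of these data known, so these counts are a description. All 3 KO-labelled libraries lay below all 3 WT-labelled ones in 19 tested members and above them in 3, where 16.7% and 15.5% of all tested genes did so. The largest falls were in Ddit4, Slc2a3, Aldoc, Hk2, Egln3 and Slc16a3, with changes of -22.6% to -36.4%, and the single rise was in Pfkm. In bulk RNA, fewer cells with a high level and less RNA per cell cannot be told apart. Together the members took 1.26% to 1.27% of the counts of a WT-labelled library and 1.19% to 1.22% of a KO-labelled one.

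**Figure D1:**
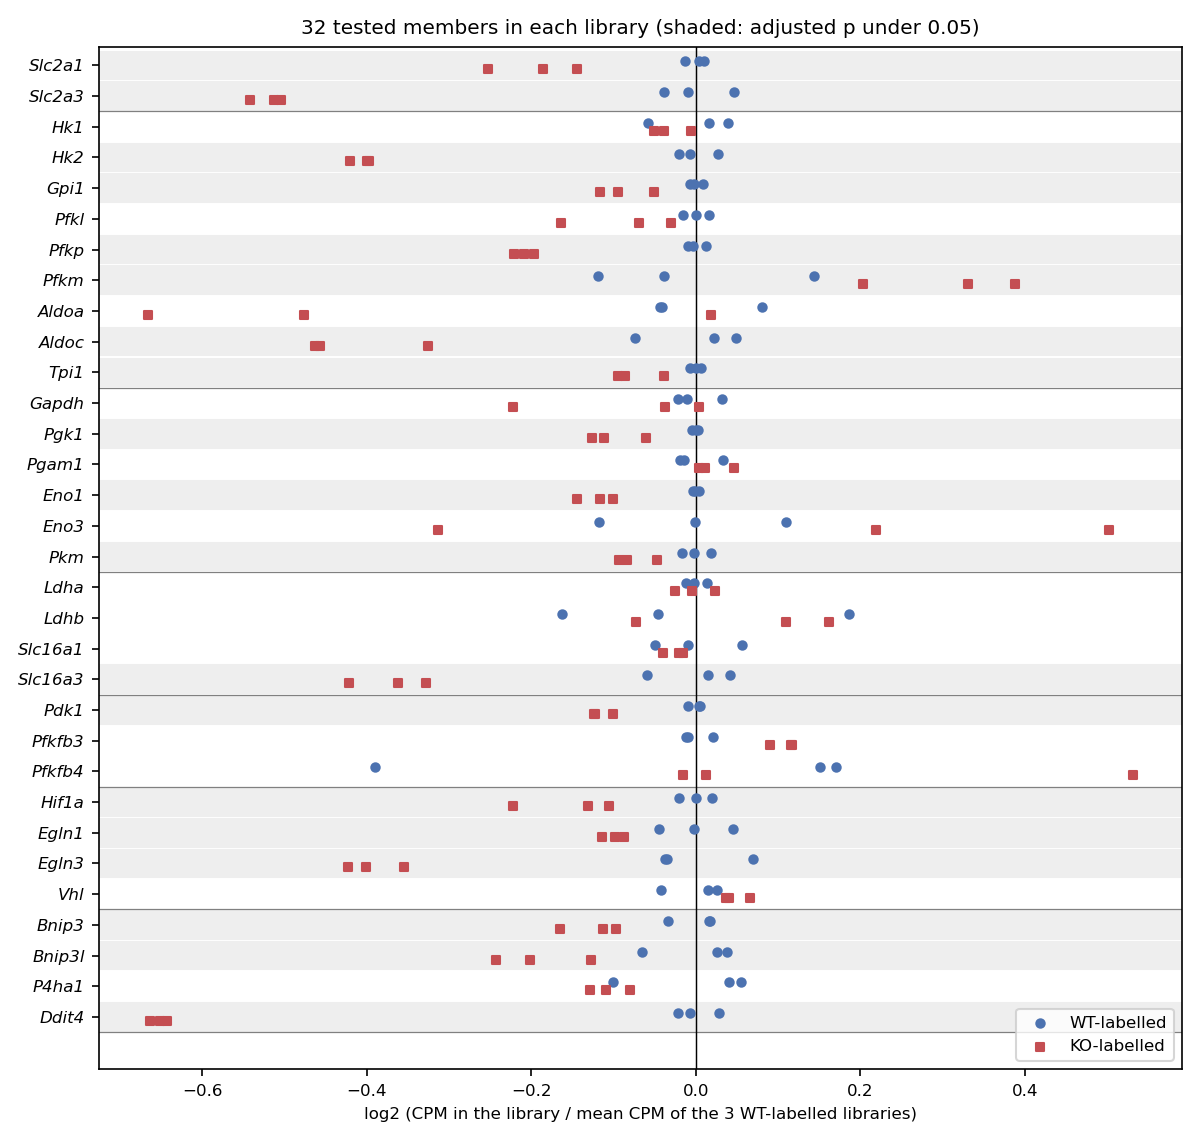
The level of each of the 32 tested members in each library, as the log2 ratio of its CPM to the mean CPM of the WT-labelled libraries; circles are the 3 WT-labelled and squares the 3 KO-labelled libraries, lines part the roles, and shaded genes passed the test. The KO-labelled squares of Ddit4, Slc2a3, Hk2, Slc16a3 and Egln3 sit well to the left of the circles, those of Pfkm to the right, and those of Aldoa and Eno3 spread widely.

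Both glucose transporters among the members fell, while a further one, Slc2a6, rose (log2 fold change 0.67). Slc2a1 encodes GLUT1, the main glucose carrier of activated T cells, and its level was 134, 134 and 132 CPM in WT-labelled replicates 1, 2 and 3 and 112, 117 and 121 in KO-labelled replicates 1, 2 and 3, the order kept from here on. It fell by 12.5% (log2 fold change -0.19 ± 0.035 (SE), adjusted p = 0.000265). Slc2a3 encodes GLUT3, a carrier of high glucose affinity. It went from 88, 93.3 and 89.8 to 63.3, 63.7 and 62 CPM, a log2 fold change of -0.52 ± 0.040 (adjusted p = 1.02e-09). For both genes every KO-labelled library lay below every WT-labelled one, and the KO-labelled libraries of Slc2a3 lay within 62 to 63.7 CPM.

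The upper part of glycolysis, from glucose phosphorylation to the triose phosphates, held 5 lower members and 1 higher among 9. Hexokinase traps glucose in the cell. Hk2, the inducible isozyme, was at 123, 127 and 124 CPM in WT-labelled and 94.5, 94.4 and 93.1 in KO-labelled libraries, a change of -24.5% (log2 fold change -0.41 ± 0.034, adjusted p = 5.06e-09). Hk1, the isozyme of most resting cells, was at 231, 247 and 243 CPM in WT-labelled and 232, 234 and 239 in KO-labelled libraries. Its groups overlapped, and the 95% interval of its change ran from -6.22% to 2.06% (adjusted p = 0.532), which lies wholly above the interval of Hk2, -28.1% to -20.7%. Gpi1, glucose-6-phosphate isomerase, went from 842, 852 and 845 to 793, 781 and 817 CPM, a change of -5.82% (adjusted p = 0.00714) with no overlap.

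Phosphofructokinase, the committed step of glycolysis, has 3 subunit genes, of which 1 was lower, 1 was higher and 1 did not pass. Pfkp, the most abundant, went from 529, 537 and 531 CPM to 461, 457 and 465 (log2 fold change -0.21 ± 0.022, adjusted p = 2.67e-07). Pfkm, the muscle-type subunit, went from 19.7, 22.3 and 18.6 to 25.4, 23.3 and 26.4 CPM, a rise of 24% (log2 fold change 0.31 ± 0.075, adjusted p = 0.00465). The gap between its highest WT-labelled and lowest KO-labelled library was small beside the spread within each group. Pfkl, the liver-type subunit, was at 149, 147 and 146 CPM in WT-labelled and 141, 132 and 144 in KO-labelled libraries and did not pass the test (adjusted p = 0.0967). Without KO-labelled replicate 3 it did, at an adjusted p of 0.0131.

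Aldolase splits the hexose into triose phosphates. Aldoc, usually the minor isozyme outside brain, went from 27, 25.3 and 27.5 to 21.2, 19.3 and 19.4 CPM (log2 fold change -0.41 ± 0.067, adjusted p = 7.69e-05). Aldoa, the isozyme of muscle and most other cells, was listed at only 10.4 to 11.4 CPM in WT-labelled libraries and did not pass the test (adjusted p = 0.0736). Its KO-labelled libraries were at 7.74, 6.79 and 10.9 CPM, and without KO-labelled replicate 3 the log2 fold change was -0.57 (adjusted p = 0.000302). Tpi1, triose phosphate isomerase, went from 718, 714 and 721 to 676, 672 and 699 CPM, a change of -4.9% (adjusted p = 0.025). That call was lost without any 1 library other than KO-labelled replicate 3 (adjusted p 0.0662 to 0.109).

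Lower glycolysis, from Gapdh to pyruvate kinase, held 3 lower members among 6 tested, with changes of -5.03% to -8%. Eno1, the enolase of most cells, went from 2200.0, 2191 and 2188 to 1985, 2023 and 2045 CPM, a change of -8% (adjusted p = 3.77e-05). Pgk1, phosphoglycerate kinase, which makes ATP in this pathway, went from 1211, 1207 and 1214 to 1109, 1121 and 1161 CPM (log2 fold change -0.099 ± 0.021, adjusted p = 0.00148). In both genes the WT-labelled libraries lay close together and the KO-labelled ones wholly below them. Pkm, pyruvate kinase, the last step, went from 2465, 2528 and 2491 to 2355, 2339 and 2414 CPM, a change of -5.03% (adjusted p = 0.00635), a call lost without WT-labelled replicate 2 (adjusted p = 0.0519).

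The other enzymes of this stretch did not pass. Gapdh, which links the triose phosphates to NADH, was at 216, 208 and 209.7 CPM in WT-labelled and 206, 212 and 181 in KO-labelled libraries (adjusted p = 0.191), and passed without KO-labelled replicate 2 (adjusted p = 0.0169). Pgam1, phosphoglycerate mutase, had a 95% interval of change from -2.35% to 5.39%. Eno3, the muscle enolase, ranged from 106 to 187 CPM over the KO-labelled libraries around the 122 to 143 of the WT-labelled ones. It did not pass (adjusted p = 0.32), but without KO-labelled replicate 2 its log2 fold change was 0.37 (adjusted p = 1.08e-06). Eno2, the neuronal enolase, had 1 to 3 counts per library and was not tested.

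Of the 4 genes of lactate production and export, 1 fell. Ldha, which reduces pyruvate to lactate and is the lactate dehydrogenase subunit of glycolytic cells, was at 1921, 1934 and 1956 CPM in WT-labelled and 1903, 1931 and 1968 in KO-labelled libraries. The groups overlapped, and the 95% interval of its change ran from -2.82% to 2.63% (adjusted p = 0.965). Slc16a3 encodes MCT4, the lactate exporter of glycolytic cells. It went from 112, 120.3 and 118 to 87.3, 93.2 and 91 CPM, a change of -22.6% (log2 fold change -0.37 ± 0.038, adjusted p = 1.47e-07), with no overlap. Slc16a1, which encodes the related carrier MCT1, was at 168, 156 and 160.3 CPM in WT-labelled and 157, 159 and 159.7 in KO-labelled libraries, with an interval of change from -6.16% to 2.95% (adjusted p = 0.67). Ldhb, the subunit of oxidative tissues, was at 3.26 to 4.15 CPM in WT-labelled libraries and did not pass (adjusted p = 0.84).

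Of the 3 regulators of flux, 1 was lower. Pdk1, the kinase that switches off pyruvate dehydrogenase, went from 109, 108 and 109 to 102, 100.1 and 100.005 CPM, a change of -7.7% (adjusted p = 0.0202). The call was lost without WT-labelled replicate 1, 2 or 3 (adjusted p 0.0559 to 0.0774). Pfkfb3 makes the sugar bisphosphate that activates phosphofructokinase. Its KO-labelled libraries all lay above the WT-labelled ones, at 73.2, 74.6 and 74.5 against 68.2, 69.7 and 68.3 CPM, without passing (adjusted p = 0.0627), and it passed under upper-quartile scaling (adjusted p = 0.0384). Pfkfb4, its relative, was at 2.13 to 3.15 CPM in WT-labelled and 2.76 to 4.04 in KO-labelled libraries.

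HIF and its oxygen-dependent control were lower in 3 of 4 members. Hif1a, the oxygen-regulated subunit, went from 309, 305 and 301 to 279, 284 and 262 CPM, a change of -10% (log2 fold change -0.15 ± 0.029, adjusted p = 0.000587). Its protein is controlled mainly by degradation, which these data did not measure. Egln3 encodes PHD3, a HIF prolyl hydroxylase that is itself a HIF target, and went from 42.3, 39.4 and 39.3 to 30.1, 30.6 and 31.5 CPM (log2 fold change -0.39 ± 0.054, adjusted p = 9.68e-06). Egln1 encodes PHD2, the main HIF hydroxylase, and went from 135, 139 and 131 to 127, 125 and 126 CPM, a change of -6.65% (adjusted p = 0.0424). The Egln1 call was lost without WT-labelled replicate 1 or 2 or KO-labelled replicate 1 or 2 (adjusted p 0.0904 to 0.225). Vhl, the substrate receptor of the ligase, was at 27 to 28.3 CPM in WT-labelled and 28.5 to 29.1 in KO-labelled libraries and did not pass (adjusted p = 0.644).

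The 4 remaining hypoxia targets were all below 0 in log2 fold change, and 3 passed. Ddit4 encodes REDD1, an inhibitor of the growth kinase complex mTORC1 that stress, hypoxia and glucocorticoids induce. It went from 116, 115 and 119 to 74.5, 75 and 73.9 CPM, the largest change among the members, of -36.4% (log2 fold change -0.65 ± 0.036, adjusted p = 4.33e-12). Bnip3 and Bnip3l encode receptors that mark mitochondria for autophagy. Bnip3l went from 92.2, 86.5 and 93 to 82.9, 78.8 and 76.6 CPM (log2 fold change -0.19 ± 0.042, adjusted p = 0.0021). Bnip3 went from 117, 113 and 117 to 108, 107 and 103 CPM, a change of -8.26% (adjusted p = 0.0152), and that call was lost without WT-labelled replicate 1 or 3 (adjusted p 0.0804 to 0.0806). P4ha1, a subunit of collagen prolyl hydroxylase, was at 70.2 to 78.2 CPM in WT-labelled and 68.9 to 71.2 in KO-labelled libraries and did not pass (adjusted p = 0.114). Without WT-labelled replicate 3 it did (adjusted p = 0.0298).

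Most genes induced early after receptor signals or by cell handling were lower too. Of the 13 tested genes on that list 9 were lower and 1 was higher. The higher one was Dusp1 (log2 fold change 0.51, adjusted p = 1.36e-08), and Jun, Jund and Hspa1b did not pass. The summed level of the list was 2207 to 2268 CPM in WT-labelled and 1615 to 1648 CPM in KO-labelled libraries. Much of that came from Egr1, the most abundant, with means of 711 CPM in WT-labelled and 358 CPM in KO-labelled libraries (log2 fold change -0.99 ± 0.024). The part of these genes in the result was not tested. Mitochondrially encoded genes took 1.38% to 1.48% of WT-labelled and 1.41% to 1.61% of KO-labelled libraries.

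Markers of B cells, myeloid cells, erythroid cells and platelets were low, while Cd8a was at 65.6 to 89.7 CPM. The 8 B cell genes summed to 6.23 to 6.93 CPM in WT-labelled and 5.49 to 7.33 in KO-labelled libraries, mostly from Cd79b, with Ms4a1 at 0.0562 to 0.374 CPM. The 10 measured myeloid genes summed to 1.94 to 2.36 and 1.24 to 1.84 CPM. Csf1r, Vcam1 and S100a8 were at 0 in all KO-labelled libraries, but had only 0 to 4 counts in each WT-labelled one. Adgre1 was at 0 in all WT-labelled libraries and had 1 count in KO-labelled replicate 1. Of the 10 myeloid genes, 2 were tested. Itgam was lower, at 1.15, 1.7 and 1.79 CPM in WT-labelled and 0.512, 1.09 and 0.288 in KO-labelled libraries (adjusted p = 0.0242), a call lost without WT-labelled replicate 2 or 3 or KO-labelled replicate 1 or 3 (adjusted p 0.0844 to 0.117). Xcr1 had a log2 fold change of 1.43 and did not pass (adjusted p = 0.0834). The 6 measured erythroid and platelet genes summed to 0.92 to 1.25 and 1.28 to 2.01 CPM. Of the 4 measured αβ T cell genes 1 rose and 1 fell. Cd8a, which some γδ T cells also express, rose by 0.40 on the log2 scale and Foxp3 fell by 0.57. Cd8b1 was at 18.3, 18.5 and 17.5 CPM in WT-labelled and 17.9, 18.3 and 17.3 in KO-labelled libraries. It did not pass (log2 fold change -0.021, adjusted p = 0.884), nor did Cd4 (adjusted p = 0.851). The sum of the 4 was 95.5 to 98.2 CPM in WT-labelled and 112 to 116 CPM in KO-labelled libraries. The receptor constant genes Trac, Trbc1 and Trbc2 of that list were not analysed here. The part of these cells in the result was not tested.

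To compare levels between genes, the deposited FPKM values were used, which divide counts by gene length and by library total. In WT-labelled libraries Eno1 was highest at 1089.8 ± 6.16 FPKM, followed by Pgk1 at 661 ± 2.24, Tpi1 at 487 ± 2.02, Ldha at 361 ± 2.21, Pkm at 323 ± 3.79 and Gpi1 at 292 ± 1.65 (mean ± SD, n = 3 each). These 6 neighbours differed by more than their spread and all lay at or above the 98.4th percentile of tested genes. Pfkp (119 ± 0.88) and Gapdh (118 ± 2.6) did not differ beyond their spread, nor did Egln1 (37.4 ± 1.21), Slc16a1 (36.3 ± 1.42) and Pfkl (36 ± 0.5), nor Bnip3l (20.8 ± 0.805) and Hk2 (20.7 ± 0.334). Ddit4 (69.2 ± 1.11), Bnip3 (65.6 ± 1.33) and Hif1a (60.9 ± 1.03) came next below the abundant enzymes. Aldoa (5.81 ± 0.305), Ldhb (2.79 ± 0.341) and Pfkfb4 (0.565 ± 0.117) were the lowest apart from Eno2. In KO-labelled libraries Ddit4 stood at 44.3 ± 0.259 FPKM, below Bnip3 at 60.6 ± 1.52 and Hif1a at 55.2 ± 2.27.

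**Figure D2:**
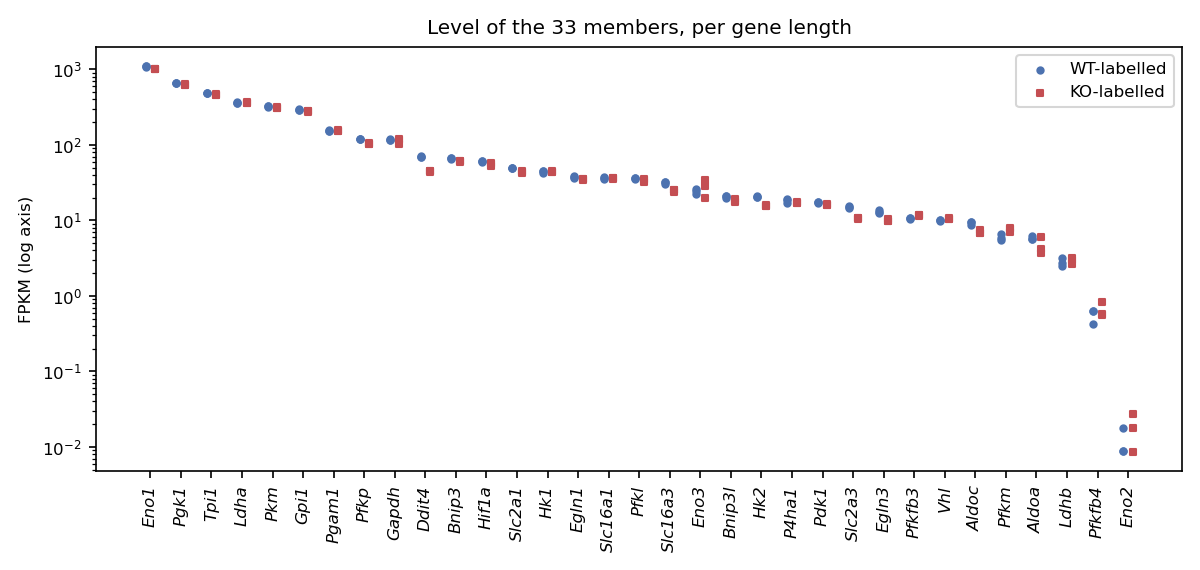
Deposited FPKM of the 33 members on a log axis, ordered by their mean in WT-labelled libraries, with 1 point per library (circles WT-labelled, squares KO-labelled). Levels run from 1089.8 FPKM for Eno1 to 0.012 for Eno2, and the 2 groups differ little beside this range.

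Several of these levels are uncertain because similar sequences may share their reads. In GENCODE vM21 on GRCm38, the transcript of Gapdh aligned at 95% identity or more, over 50% or more of its length, to those of 41 other genes, 38 of them pseudogenes. Eno1 and Ldha had 4 such genes each, Bnip3 4, Pgk1 2, and Gpi1, Pkm and Ldhb 1 each. The labels do not say how the counting treated reads that fit several places, and the levels of these genes carry that uncertainty. No such copy was found for Aldoa, and its level is given as listed. Antisense or neighbouring genes overlapped exons of members too, most for Bnip3, where 22.3% of exon bases are shared with a gene on the other strand. The labels do not say whether the counting used strand, so reads of such pairs cannot be told apart. Genes on the same strand shared 15.3% of the exon bases of Pkm and 10.2% of those of Pfkm, where strand would not part the reads.

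Within families of isozymes among the members, shares did not overlap between the groups in 5 of 10 families: the glucose transporter, hexokinase, phosphofructokinase, monocarboxylate transporter and prolyl hydroxylase families. Of all tested genes taken singly, by CPM, 16.7% lay wholly below and 15.5% wholly above in KO-labelled libraries. Shares in families outside the members were not computed, so the count of 5 is a description. Shares of summed FPKM do not depend on how libraries are scaled, and they are given without a test. Hk2 made up, of hexokinase FPKM, 31.8% ± 0.496 in WT-labelled and 26.4% ± 0.475 in KO-labelled libraries. Of the monocarboxylate transporter pair, Slc16a3 made up 46.6% ± 1.82 in WT-labelled and 40.8% ± 0.62 in KO-labelled libraries. Of the pair Slc2a1 and Slc2a3, which leaves out Slc2a6, Slc2a3 made up 23.3% ± 0.494 in WT-labelled and 19.5% ± 0.752 in KO-labelled libraries, so the share of Slc2a1 was larger in KO-labelled libraries. Of the prolyl hydroxylase pair, Egln3 made up 25.9% ± 1.01 in WT-labelled and 22.2% ± 0.475 in KO-labelled libraries. In each of these 4 families no KO-labelled library reached the lowest WT-labelled one. The phosphofructokinases shifted too. Pfkp made up 73.8% ± 0.312 in WT-labelled and 71.2% ± 0.874 in KO-labelled libraries. Pfkm made up 3.77% ± 0.321 in WT-labelled and 5.21% ± 0.234 in KO-labelled libraries, again with no overlap. The other 5 families, the aldolases, enolases, lactate dehydrogenases, PFKFB enzymes and BNIP3 proteins, overlapped between the groups. Among them, Eno1 held 97.8% ± 0.165 in WT-labelled and 97.4% ± 0.689 in KO-labelled libraries, and Bnip3 held 75.9% ± 0.351 in WT-labelled and 76.7% ± 0.378 in KO-labelled libraries.

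**Figure D3:**
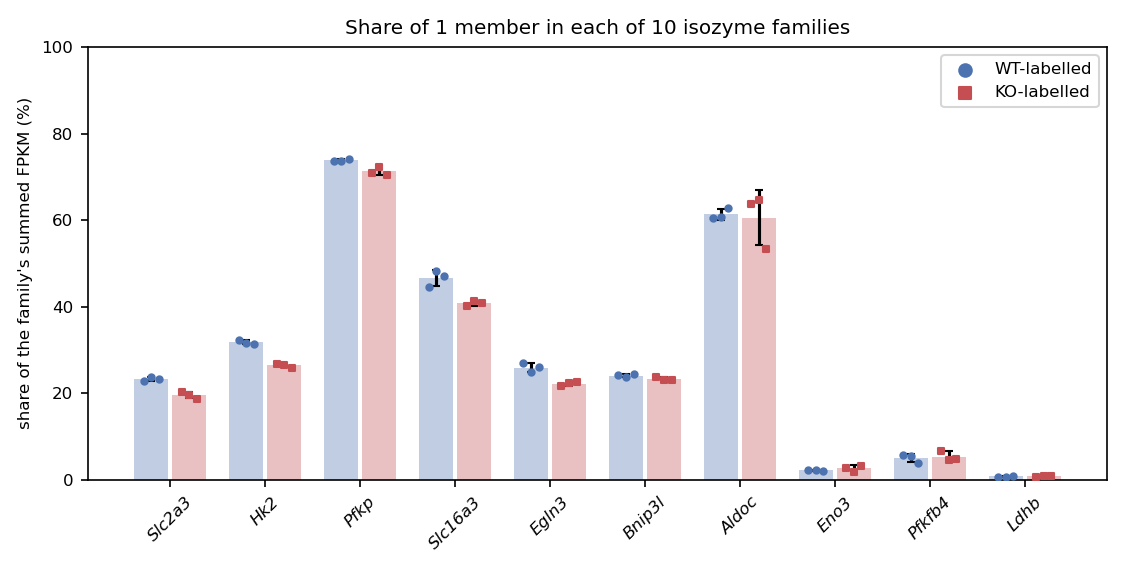
Share of 1 member in the summed FPKM of each of 10 isozyme families, in percent; bars are means of 3 libraries, whiskers the SD and points the libraries. The KO-labelled shares of Slc2a3, Hk2, Pfkp, Slc16a3 and Egln3 lie below the WT-labelled ones, and the KO-labelled shares of Aldoc spread from 53.3% to 64.6%.

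A separate list of other HIF pathway genes, which shares no gene with the 33, held 12 lower and 1 higher of 32 tested. Its median log2 fold change was -0.055. Over all tested genes 10.1% were lower and 7.23% higher, the shares to set beside this and the other list counts. The number of lower genes on the HIF list ran from 8 to 11 when 1 library was left out. With limma on log2(FPKM + 1), which omits genes under a mean of 1 FPKM, it was 8. The 6 genes of this list with the smallest p were all lower. Nampt, which makes NAD from nicotinamide, had a log2 fold change of -0.24 ± 0.037. Vegfa, the angiogenic growth factor and a classic HIF target, went from 5.34, 4.66 and 4.78 to 2.28, 2.46 and 2.36 CPM (-1.06 ± 0.17, adjusted p = 8.61e-05). The histone demethylase gene Kdm3a changed by -0.21 ± 0.035, the oxidoreductase gene Ero1a by -0.21 ± 0.039, the adenylate kinase gene Ak4 by -0.55 ± 0.10 and the collagen lysyl hydroxylase gene Plod2 by -0.27 ± 0.051. The member that was higher, named after its value was seen, was Epas1, which encodes the α subunit HIF-2α, at 2.42, 2.04 and 1.88 CPM in WT-labelled and 4.52, 3.38 and 4.14 in KO-labelled libraries (log2 fold change 0.92 ± 0.20, adjusted p = 0.00169). The partner subunit gene Arnt and the HIF controllers Egln2 and Hif1an, also chosen after their values were seen, did not pass, at -0.032, 0.075 and -0.046.

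Other glycolysis genes were mixed, with 3 lower and 2 higher of 15 tested and a median log2 fold change of 0.024. The glucose transporter gene Slc2a6 rose from 12.4, 12 and 13.5 to 21.1, 18.4 and 20.7 CPM (log2 fold change 0.67 ± 0.080, adjusted p = 1.42e-06), while Slc16a6, a carrier of the lactate transporter family, changed by -0.24 ± 0.034 and Pgm1, a phosphoglucomutase gene, by -0.24 ± 0.041. Gpd2, the mitochondrial glycerol phosphate dehydrogenase, was lower at -0.13 (adjusted p = 0.0238), a call lost without WT-labelled replicate 2 or 3 or KO-labelled replicate 1 or 2 (adjusted p 0.0506 to 0.176). Pgp, a phosphoglycolate phosphatase, was higher at 0.16 (adjusted p = 0.0458), and that call was lost without WT-labelled replicate 1 or 3 or KO-labelled replicate 1 (adjusted p 0.108 to 0.268). The Pgp call was also lost with DESeq2 (adjusted p = 0.062) and with limma on log2(FPKM + 1) (adjusted p = 0.0768), and limma lost Gpd2 too (adjusted p = 0.0802). No gene of pyruvate entry into mitochondria passed among 12 tested by edgeR, where 3 had an unadjusted p under 0.05, and DESeq2 called 0. No gene of the pentose phosphate pathway passed among 8 by edgeR, where 5 had an unadjusted p under 0.05. DESeq2 called 1 of these 8, and edgeR with upper-quartile scaling called 3, each as higher.

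Regulators of glucose and growth sensing were lower in 5 and higher in 0 of 19 tested members. Myc, a transcription factor gene that raises glycolysis in activated T cells, went from 222, 228 and 225 to 148, 147 and 146 CPM (log2 fold change -0.62 ± 0.028, adjusted p = 1.93e-13). Foxo3, Sesn3 and Mlxip, the last of which encodes a glucose-sensing E-box factor, changed by -0.48, -0.31 and -0.23. Sesn2, a stress-induced inhibitor of mTORC1 signalling, changed by -0.24 (adjusted p = 0.0127), a call lost without WT-labelled replicate 2 or 3 or KO-labelled replicate 1 (adjusted p 0.0594 to 0.0831). The E-box factor genes Usf1 and Usf2, chosen after their values were seen, did not pass (adjusted p = 0.355 and 0.0775).

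**Figure D4:**
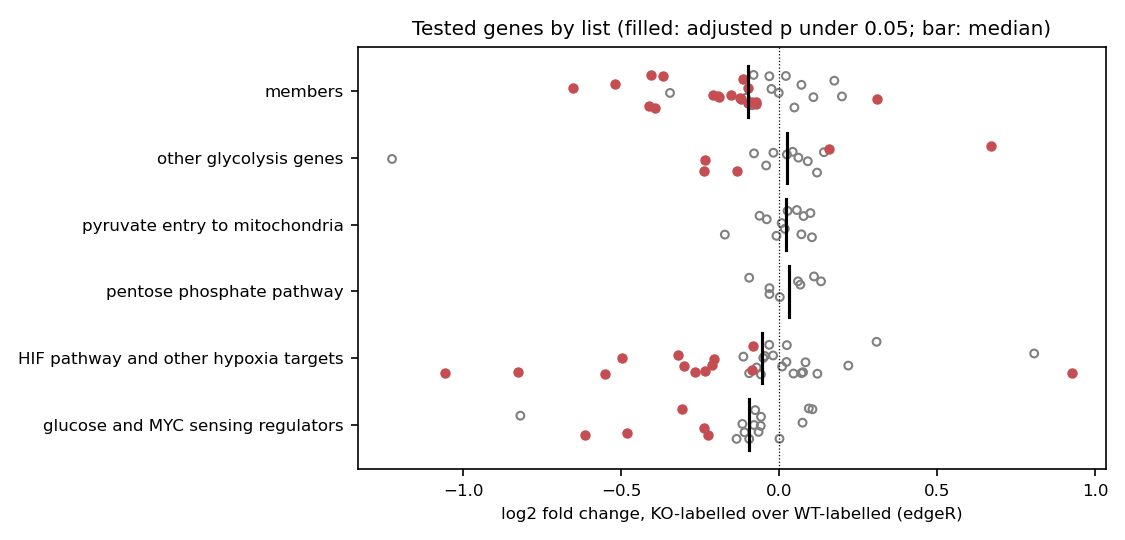
Log2 fold change, KO-labelled over WT-labelled, of each tested gene in the 33-gene set and in 5 further lists of related genes; filled points passed the test, open ones did not, and bars are medians. The medians lie at -0.099 for the 33-gene set, -0.055 for the HIF list and -0.095 for the growth and glucose sensing list, and just above 0 for the other 3 lists.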

How the data were processed

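The 33 members and all gene lists were chosen with earlier results of these data known. The deposited gene table holds, for each of 6 libraries, read counts per gene and FPKM values. The submitters' processing notes name fastp, HISAT2, HTSeq and GRCm39, without roles or versions. The labels do not state the annotation or the strand setting. The counts were used as deposited, and FPKM as deposited by the authors was used to compare genes and for isozyme shares. FPKM equalled counts divided by library total and 1 length per gene, to within 0.01 bp, with no exception among the 19390 genes. A gene with counts in a single library could not be compared and met this by construction.

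Counts were fitted by the quasi-likelihood test of edgeR 4.0.16 (R 4.3.3), after filterByExpr by group and TMM scaling, on all 6 libraries, with Benjamini-Hochberg adjustment over 12810 genes and a threshold of 0.05. The error of a log2 fold change is its size divided by the square root of F, and intervals are 95% intervals. CPM uses TMM-scaled totals. No paired term entered the fit, and the scripts were tested on simulated data. With 3 libraries against 3, an exact permutation test of a single value cannot go below 0.1. Genes named from a pathway list are its called genes, at most the 6 with the smallest p; Epas1, Arnt, Egln2, Hif1an, Usf1, Usf2 and the single marker genes were named after their values were seen. Alternatives used other scalings and filters, DESeq2 1.42.0, limma 3.58.1 on log2(FPKM + pseudocount), a replicate block and leaving out each library. Near-identical transcripts were found with minimap2 2.31-r1302. The level of 1 marker gene is not reported here.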

Additional observations from a re-analysis of the deposited data

How the results depend on the processing

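Of the 19 called members, 13 passed under each of the 15 alternatives run, and none of the 19 changed direction under any. The 6 that lost the call under at least 1 alternative were Egln1, Tpi1, Gpi1, Pdk1, Pkm and Bnip3. The number of lower members was 18, and ran from 14 to 20 when 1 library was left out; limma on log2(FPKM + 0.1) or log2(FPKM + 1) gave 13. The number of higher members was 1, and 2 under upper-quartile scaling, under total-count scaling and with no filter on low counts; it ran from 1 to 2 when 1 library was left out. Calls over all genes numbered 2219, and 1660 to 2256 when 1 library was left out, and DESeq2 called 2077. With the replicate number as a block, 17 members were lower and 1969 genes were called, and Egln1 lost its call, as did Pgp (adjusted p = 0.0789) and Cd3e (adjusted p = 0.0551) outside the members. Same-numbered libraries did not deviate together (correlations 0.043, -0.047 and -0.087), so the numbers were not taken to pair the libraries, and not every library correlated best with its own number. Small falls such as those of Tpi1, Egln1 and Pdk1 lie at the limit of what 3 libraries a group can show. Counting error is larger for low-count members such as Pfkfb4 and Ldhb, where small changes would not be detected, and Eno2 was not tested.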

Other observations

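Aldoa, Eno3 and Gapdh varied more among KO-labelled libraries than most genes of at least 5 CPM, whatever their level. The coefficient of variation of Eno3 was 27.2% over the KO-labelled and 7.88% over the WT-labelled libraries, and that of Aldoa was 25.4% over the KO-labelled ones. Over 9370 genes of at least 5 CPM, the median coefficient was 3.86% in KO-labelled and 3.44% in WT-labelled libraries. KO-labelled replicate 3 was the highest of its group for Aldoa and Eno3 and the lowest for Gapdh. The wider spread was not limited to these genes. Over all tested genes, chi-square over its degrees of freedom was 3.26 to 3.3 between pairs of WT-labelled libraries. Between KO-labelled replicates 1 and 2 it was 3.6, between 1 and 3 it was 4.79, and between 2 and 3 it was 7.19.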
